A study of Homo sapiens with 18 samples.

Results

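The 9 genes described here are HMOX1, NQO1, GCLC, GCLM, TXNRD1, SRXN1, SLC7A11, PGD and ME1, a set of antioxidant genes known as targets of the transcription factor NRF2. They were taken by gene symbol from the deposited count table, which holds 63241 genes, and all 9 were found and passed the filter on low counts in every fit. The libraries were made from poly(A) RNA of 2 human prostate cancer cell lines with the genotype given as wild type. LNCaP, an androgen receptor-positive line from a lymph node metastasis, had received genistein at 20 or 10 µM or baicalein at 20 or 10 µM for 24 h, or was untreated. PC-3, a line from a bone metastasis that lacks the androgen receptor, was untreated. Each of the 6 groups had 3 libraries. The labels call the controls untreated, while the treatment protocol describes a control that received the DMSO vehicle, so an effect of the vehicle cannot be told apart from one of the drug. Nothing states that the replicates came from separate cultures, so p-values rest only on variation between libraries of the same group, which may be technical. The fits pool this variation over the fitted groups and moderate it across genes.

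NRF2, encoded by NFE2L2, is held at a low level by KEAP1, which hands it to a ubiquitin ligase for degradation. Electrophiles and oxidants modify KEAP1, NRF2 then accumulates, pairs with a small MAF protein and binds antioxidant response elements in its target genes. The repressor BACH1 can also occupy such elements, those of HMOX1 among them, and stress factors such as ATF4 can drive HMOX1 and SLC7A11 as well. Both drugs are plant flavonoids of the same formula. Genistein belongs to the isoflavones and baicalein to the flavones, which carry their phenyl ring on different carbons of the chromone core, and their hydroxyl groups are placed differently too.

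Promoters from RefSeq (GRCh38.p14, 250 bases before to 50 after each annotated start) were present for 7 of the 9 genes, with HMOX1 and SLC7A11 not among them and 2 starts listed for TXNRD1. The core of the antioxidant response element, spelled TGACNNNGC and searched on both strands, occurred in the promoters of GCLM, ME1, PGD and TXNRD1, 4 of these 7 genes. It occurred in 4687 of all 35116 promoters in the table, or 13.3%. The promoters of GCLC, NQO1 and SRXN1 had no match in this window. The windows upstream of the start are shown because this core is the form of the element that NRF2 is known to bind, and the match is in capitals. Matches at GCLM, PGD and the second TXNRD1 start lie on the opposite strand, so their capitals show its reverse complement. A second match, on the opposite strand, starts at base -8 in TXNRD1 and at base 12 in ME1 and is not shown.
GCLM, chr1:93909431-93909494, minus strand, match starting at base -34 from the start: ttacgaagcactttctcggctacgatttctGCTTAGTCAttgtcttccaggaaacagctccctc
ME1, chr6:83431150-83431218, minus strand, match starting at base -137: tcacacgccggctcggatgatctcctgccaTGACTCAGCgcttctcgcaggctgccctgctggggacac
PGD, chr1:10398833-10398901, plus strand, match starting at base -201: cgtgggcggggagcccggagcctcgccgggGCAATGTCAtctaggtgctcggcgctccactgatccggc
TXNRD1, first start, chr12:104215650-104215718, plus strand, match starting at base -99: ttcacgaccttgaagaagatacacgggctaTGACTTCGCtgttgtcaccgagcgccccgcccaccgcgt
TXNRD1, second start, chr12:104286900-104286968, plus strand, match starting at base -102: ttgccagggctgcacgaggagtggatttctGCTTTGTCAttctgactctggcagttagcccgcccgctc

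In ME1 the first letters of the match also spell an AP-1 site, TGANTCA, which 7.71% of all promoters held and no other of the 7 members found did. The element read by ATF4 and C/EBP proteins, TGATGNAA, was in 3.62% of all promoters and in none of the members found. The sterol regulatory element, TCACNCCAC, was in 1.13% of all promoters and likewise in none of them. These are matches of letters and not measured binding.

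The libraries held 10013567 to 18445711 counted reads each. Transcripts encoded by mitochondrial DNA took 12.5% ± 1.97 of the counts at 20 µM baicalein and 5.09% ± 0.38 in untreated LNCaP (SD, n = 3 each), and 4.55% to 6.05% on average in the other 4 groups. The summed level of 7 LNCaP markers, androgen-regulated and luminal genes, lay at 2440 to 2551 CPM (counts per 1000000 counted reads, with library scaling) at 20 µM genistein and 626 to 763 CPM at 20 µM baicalein, against 3847 to 4228 CPM in untreated LNCaP. All 7 markers were detected in every LNCaP group. With 20 µM genistein 6 of the 7 were called lower than in untreated LNCaP (adjusted p under 0.05), beside 8.12% of all tested genes. FOLH1 was not called, at 886 to 950 against 847 to 908 CPM. With 20 µM baicalein all 7 were called lower, beside 27.8% of all tested genes. The summed level of 6 PC-3 markers was 5978 to 7110 CPM in PC-3 cells. It was 17.1 to 19.3 CPM at 20 µM genistein and 24.9 to 27.1 CPM at 20 µM baicalein, against 7.42 to 8.78 CPM in untreated LNCaP, where ANXA3 was at 0. Most of these LNCaP sums was VIM alone, at 12.2 to 14.4, 20.0 to 21.2 and 5.87 to 6.60 CPM in the same order. Only 3 of the 6 PC-3 markers passed the filter on low counts in the LNCaP fit. A CPM value is a share of a library. A change in a gene's RNA per cell, in the other RNA or in the mixture of cells therefore cannot be told apart. Apart from fits without mitochondrially encoded genes, given among the alternatives, the part of these shifts in the results below was not tested.

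Compared per kilobase of exon in untreated LNCaP, PGD stood highest at 86.9 CPM per kb, followed by SRXN1 at 67.9, ME1 at 66.4, TXNRD1 at 63.5, SLC7A11 at 63.0 and NQO1 at 48.6 CPM per kb. GCLM at 16.5, HMOX1 at 8.96 and GCLC at 8.68 CPM per kb were the low ones. Lengths cover all exons of a gene in GENCODE 29, and the deposited locus equals that release for 3 of the 9 genes. Close values in this order are therefore uncertain.

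**Figure D1:**
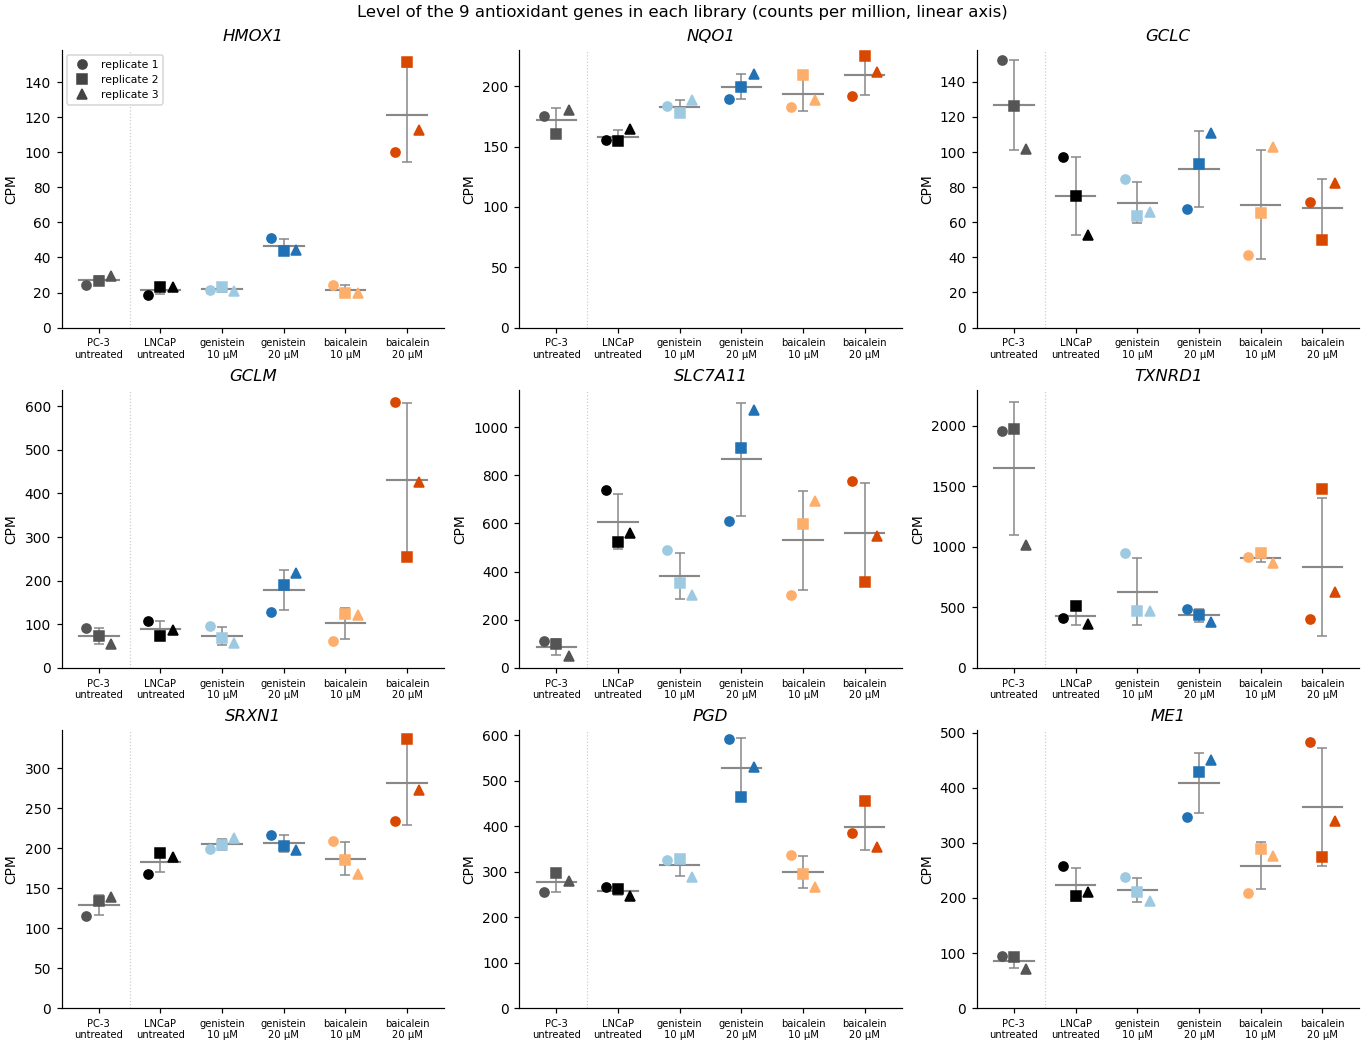
Level of each of the 9 genes in CPM (linear vertical axis from 0) in the 18 libraries, with groups along the horizontal axis and the 3 libraries of a group as circle, square and triangle. Grey bars give the group mean and SD. HMOX1 lies at 43.7 to 51.2 CPM with 20 µM genistein and 100.1 to 151.7 CPM with 20 µM baicalein, apart from every other group, while TXNRD1 at 20 µM baicalein spreads from 401 to 1476 CPM.

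At 20 µM both drugs raised members of the set and at 10 µM neither did by the test. With 20 µM genistein 4 of the 9 genes were called higher than in untreated LNCaP (HMOX1, NQO1, PGD and ME1) and none lower, where 16.4% of all 16985 tested genes were called and 8.31% were called higher. With 20 µM baicalein 7 of 9 were called higher (HMOX1, NQO1, GCLM, TXNRD1, SRXN1, PGD and ME1) and none lower, where 57.2% of all genes were called and 29.4% were called higher. A call means a Benjamini-Hochberg adjusted p under 0.05 over all genes tested in edgeR's quasi-likelihood fit of the 15 LNCaP libraries. The median log2 fold change of the 9 genes was 0.57 with 20 µM genistein and 0.67 with 20 µM baicalein, beside 0.05 and 0.04 over all genes. Both drugs were compared with the same untreated libraries.

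At 10 µM none of the 9 genes was called with genistein, where 0.112% of all genes were called, and none with baicalein, where 0.4% were. By edgeR without adjustment, 2 of the 9 had p under 0.05 with genistein (NQO1 and PGD) and 2 with baicalein (NQO1 and TXNRD1). DESeq2 called none with 10 µM genistein and 1, NQO1, with 10 µM baicalein.

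HMOX1 (ENSG00000100292, chr22:35380361-35394214, plus strand) encodes haem oxygenase, which opens the haem ring to biliverdin, carbon monoxide and iron. It had 51.2, 43.7 and 44.2 CPM with 20 µM genistein, against 18.5, 23.2 and 22.9 CPM in untreated LNCaP. In 20 µM baicalein libraries it had 100.1, 151.7 and 112 CPM, against the same untreated values. No library of either 20 µM group overlapped the untreated ones, and the baicalein libraries all lay above the genistein ones. The increase was 2.24-fold with genistein (log2 1.16 ± 0.155 SE, adjusted p = 0.000349) and 5.79-fold with baicalein (log2 2.53 ± 0.161 SE, adjusted p = 5.36e-08).

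HMOX1 stayed within the untreated range or close to it at 10 µM, with 21.2, 23.3 and 21.0 CPM in genistein libraries and 24.5, 19.6 and 19.8 CPM in baicalein libraries. The 95% confidence interval of the log2 change at 10 µM ran from -0.28 to 0.38 with genistein and from -0.30 to 0.37 with baicalein. Its paralog HMOX2, the constitutive haem oxygenase, was not called with either drug at 20 µM. The ratio of HMOX1 to HMOX2 counts within a library, which library scaling does not touch, was 0.852 to 1.39 with 20 µM genistein and 2.38 to 2.97 with 20 µM baicalein, against 0.415 to 0.512 in untreated LNCaP. Each ratio differed from untreated with p = 0.1 in a two-sided exact permutation test of the log ratios, the smallest p that 3 libraries against 3 allow.

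NQO1 (ENSG00000181019, chr16:69706996-69726668, minus strand) encodes a quinone reductase that passes electrons in pairs and so avoids semiquinone radicals. It had 189, 199 and 209.8 CPM with 20 µM genistein and 192, 225 and 212 CPM with 20 µM baicalein, against 155, 155 and 164 CPM in untreated LNCaP. All 6 libraries at 20 µM lay above all 3 untreated ones. NQO1 rose 1.31-fold with genistein (log2 0.40 ± 0.0941 SE, adjusted p = 0.0133) and 1.36-fold with baicalein (log2 0.45 ± 0.0942 SE, adjusted p = 0.00126). At 10 µM it had 183, 178 and 188 CPM with genistein and 183, 209.1 and 188 CPM with baicalein, also above every untreated library, with intervals of the log2 change from 0.04 to 0.44 and from 0.13 to 0.54. The call at 20 µM genistein was lost without untreated replicate 2 (adjusted p = 0.0916) or 3 (0.0578), or without genistein replicate 3 (0.0608).

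The enzyme that makes gamma-glutamylcysteine, the rate-limiting step of glutathione synthesis, has a catalytic subunit, GCLC, and a modifier subunit, GCLM. GCLM (ENSG00000023909, chr1:93885199-93909456, minus strand) had 609, 255 and 427 CPM with 20 µM baicalein, against 107, 73.3 and 87.8 CPM in untreated LNCaP. Every baicalein library lay above every untreated one, and replicate 1 held more than 2 times the level of replicate 2 (ratio of highest to lowest 2.39). GCLM rose 4.96-fold (log2 2.31 ± 0.362 SE, adjusted p = 0.000138).

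With 20 µM genistein GCLM had 127, 189 and 218 CPM, again above all untreated libraries, at a log2 change of 1.05 ± 0.349 SE and an adjusted p of 0.0574, which missed the threshold. It was called there by DESeq2 (adjusted p = 0.0344) and when the trends of each library with GC content and length were removed (0.00222). At 10 µM it had 95.9, 67.9 and 56.4 CPM with genistein and 61.2, 123 and 122 CPM with baicalein, both overlapping the untreated libraries.

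GCLC (ENSG00000001084, chr6:53497341-53616970, minus strand) was not called at either dose of either drug. It had 67.7, 93.2 and 111 CPM with 20 µM genistein and 71.6, 50.0 and 82.6 CPM with 20 µM baicalein, against 97.4, 75.2 and 52.5 CPM in untreated LNCaP, and all of these ranges overlapped. The interval of its log2 change with 20 µM baicalein ran from -0.81 to 0.60. The count ratio of GCLM to GCLC was 1.88 to 2.03 with 20 µM genistein and 5.11 to 8.51 with 20 µM baicalein, against 0.976 to 1.67 in untreated LNCaP (p = 0.1 each, two-sided exact permutation test, the smallest possible). In the 3 baicalein libraries the modifier outnumbered the catalytic subunit's reads in each library, also in replicate 2, where both were lowest.

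SLC7A11 (ENSG00000151012, chr4:138164097-138242349, minus strand) encodes the transport subunit of the cystine-glutamate exchanger, which brings in the cystine for glutathione. It had 610.2, 914 and 1073 CPM with 20 µM genistein and 775, 355 and 549 CPM with 20 µM baicalein, against 737, 523 and 562 CPM in untreated LNCaP. The groups overlapped, and SLC7A11 was not called with genistein (log2 0.57 ± 0.344 SE, adjusted p = 0.291) or with baicalein (log2 -0.07 ± 0.343 SE, adjusted p = 0.867). At 10 µM it had 489, 354 and 304 CPM with genistein, below every untreated library without a call (adjusted p = 0.621), and 301, 596 and 694 CPM with baicalein. With the GC and length trends removed it was called at 20 µM in opposite directions. It was higher with genistein (log2 0.56, adjusted p = 0.000165), where 12.5% of all genes were called higher. It was lower with baicalein (log2 -0.21, adjusted p = 0.0241), where 30.1% were called lower. These trends were taken against the mean of all fitted libraries, so differences between groups that follow GC content or length are removed too. At 10 µM genistein the log2 change of SLC7A11 went from -0.65 to -0.18 in that fit.

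The heavy chain that anchors the same exchanger, SLC3A2, rose with baicalein while SLC7A11 did not pass the test. SLC3A2 had 1082 to 1405 CPM with 20 µM baicalein and 418 to 487 CPM with 20 µM genistein, against 330 to 364 CPM in untreated LNCaP, increases of 3.80-fold (adjusted p = 2.41e-08) and 1.38-fold (adjusted p = 0.011). SLC3A2 also serves other amino acid carriers, among them the one formed with SLC7A5. The count ratio of SLC7A11 to SLC3A2 was 0.267 to 0.716 with 20 µM baicalein, against 1.54 to 2.18 in untreated LNCaP, and did not overlap (p = 0.1, two-sided exact permutation test, the smallest possible). With 20 µM genistein it was 1.25 to 2.30 and overlapped the untreated range (p = 0.8, two-sided exact permutation test).

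**Figure D2:**
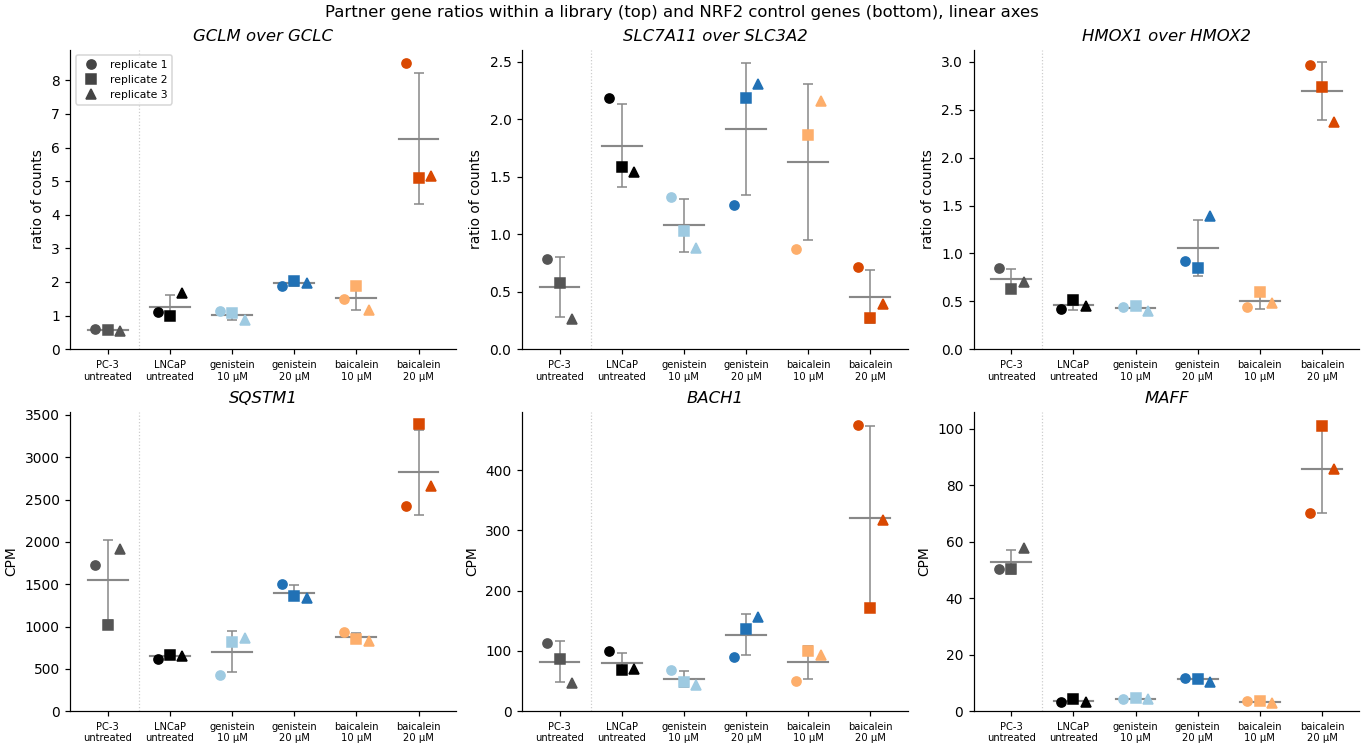
Upper panels show the ratio of counts of 2 partner genes within each library (GCLM over GCLC, SLC7A11 over SLC3A2, HMOX1 over HMOX2) and lower panels the CPM of 3 genes that control NRF2 activity, on linear axes from 0, by group, with each library as a symbol and grey bars for the mean and SD. GCLM over GCLC is 5.11 to 8.51 in the 20 µM baicalein libraries and SLC7A11 over SLC3A2 is 0.267 to 0.716 there.

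Thioredoxin reductase, TXNRD1 (ENSG00000198431, chr12:104215779-104350307, plus strand), is the selenoenzyme that keeps thioredoxin reduced with NADPH. It was the most uneven member, with 401, 1476 and 624 CPM with 20 µM baicalein, against 411, 508 and 360 CPM in untreated LNCaP. One baicalein library lay inside the untreated range and another was the highest of all LNCaP libraries. The ratio of highest to lowest baicalein library was 3.68, and 3.20% of 11670 expressed genes had a larger one in that group. The increase of 2.00-fold was called narrowly (log2 1.00 ± 0.386 SE, adjusted p = 0.0406). Without baicalein replicate 2 the log2 change was 0.32 and the adjusted p 0.360, and leaving out any one untreated replicate also ended the call (adjusted p = 0.0634 to 0.137). In all, the call ended in 9 of 14 alternatives, also with no filter on low counts (0.135), with no other groups fitted (0.103) and without mitochondrially encoded genes (0.0529).

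At 10 µM baicalein TXNRD1 was even and high, with 913, 947 and 869 CPM, each above every untreated library, though not called (log2 1.14 ± 0.387 SE, adjusted p = 0.290). With genistein it had 484, 438 and 376 CPM at 20 µM and 949, 473 and 467 CPM at 10 µM, both overlapping the untreated libraries. Inside TXNRD1 lies RPL18AP3, a processed copy of a ribosomal protein gene on the same strand, whose own count came to 84.9% of that of TXNRD1 over the 18 libraries. RPL18AP3 had 648, 889.5 and 714 CPM in the 20 µM baicalein libraries, against 496, 505 and 552 CPM in untreated LNCaP. Both genes were highest in the same library at 20 µM baicalein and at 20 µM genistein, but in no other group. In PC-3 replicate 3 RPL18AP3 was the highest of its group, at 964 CPM, and TXNRD1 the lowest, at 1015 CPM. The overlap is one of whole gene spans, and whether it includes an exon of TXNRD1 was not examined. Whether and how the counting shared reads between them was not stated, so the level of TXNRD1 is uncertain. The part of RPL18AP3 in its spread was not tested. The mitochondrial and testis-enriched paralogs TXNRD2 and TXNRD3 fell with 20 µM baicalein, by 1.96-fold (adjusted p = 2.58e-05) and 2.01-fold (adjusted p = 4.15e-05).

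SRXN1 (ENSG00000271303, chr20:646615-653200, minus strand) encodes sulfiredoxin, which restores overoxidised peroxiredoxins. It had 234, 336 and 272 CPM with 20 µM baicalein, against 168, 193 and 188 CPM in untreated LNCaP, with no overlap. The increase was 1.57-fold (log2 0.66 ± 0.130 SE, adjusted p = 0.000799). With 20 µM genistein SRXN1 had 217, 203 and 198 CPM, also above all untreated libraries, at an interval of the log2 change from -0.05 to 0.51 and without a call (adjusted p = 0.266).

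PGD and ME1 encode cytosolic enzymes that make NADPH, the reducing power used by the glutathione and thioredoxin systems. PGD (ENSG00000142657, chr1:10398592-10420511, plus strand), phosphogluconate dehydrogenase of the pentose phosphate pathway, had 592, 464 and 529 CPM with 20 µM genistein and 386, 456 and 354 CPM with 20 µM baicalein, against 265, 261 and 247 CPM in untreated LNCaP. The 3 groups did not overlap, and genistein was the higher of the drugs in every library. PGD rose 2.13-fold with genistein (log2 1.09 ± 0.130 SE, adjusted p = 0.000155) and 1.59-fold with baicalein (log2 0.67 ± 0.129 SE, adjusted p = 0.000673). At 10 µM it had 287 to 328 CPM with genistein and 266 to 336 CPM with baicalein, above the untreated libraries and not called.

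ME1 (ENSG00000065833, chr6:83210402-83431051, minus strand), the cytosolic malic enzyme, had 347, 428 and 449.9 CPM with 20 µM genistein and 483, 274 and 339 CPM with 20 µM baicalein, against 258, 204 and 210.2 CPM in untreated LNCaP. All 6 treated libraries lay above the untreated ones, the lowest of them, baicalein replicate 2, by the narrowest margin. ME1 rose 1.90-fold with genistein (log2 0.93 ± 0.204 SE, adjusted p = 0.00889) and 1.68-fold with baicalein (log2 0.75 ± 0.203 SE, adjusted p = 0.00679). At 10 µM it had 195 to 238 CPM with genistein and 209.2 to 288 CPM with baicalein, overlapping the untreated range.

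At 20 against 10 µM genistein 5 of 9 genes were higher, where 13.2% of all genes were called and 5.59% were called higher: HMOX1 2.16-fold, GCLM 2.49-fold, SLC7A11 2.33-fold, PGD 1.72-fold and ME1 1.95-fold. The calls of GCLM and SLC7A11 ended without replicate 2 or 3 of either genistein dose (adjusted p = 0.0764 to 0.138). At 20 against 10 µM baicalein 4 of 9 were higher, where 54.4% were called and 26.8% were called higher: HMOX1 5.67-fold, GCLM 4.22-fold, SRXN1 1.50-fold and PGD 1.33-fold. The call of PGD ended without replicate 2 or 3 at 10 µM or replicate 2 at 20 µM (adjusted p = 0.0539 to 0.0739). TXNRD1, at log2 changes of 1.00 and 1.14 for 20 and 10 µM baicalein against untreated, had a log2 difference of -0.14 between 20 and 10 µM (adjusted p = 0.784). Without baicalein 20 µM replicate 2 that difference was -0.82 (adjusted p = 0.0312).

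Genistein and baicalein were compared directly at the 2 matched doses, and p-values were adjusted over all genes and also over the genes of both doses together. At 20 µM 4 of 9 genes differed, where 48.7% of all genes were called, 25.4% higher with genistein and 23.3% lower. HMOX1 was 2.58-fold lower with genistein than with baicalein (log2 -1.37 ± 0.154 SE, adjusted p = 1.33e-05, over both doses 2.67e-05). GCLM was 2.39-fold lower (log2 -1.25 ± 0.350 SE, adjusted p = 0.00989, over both doses 0.0194) and SRXN1 1.35-fold lower (log2 -0.43 ± 0.129 SE, adjusted p = 0.0147, over both doses 0.0287). PGD was 1.34-fold higher with genistein (log2 0.43 ± 0.129 SE, adjusted p = 0.0151, over both doses 0.0294).

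The calls other than that of HMOX1 each ended when some single library was left out. That of GCLM ended without baicalein replicate 1 (adjusted p = 0.0514) and that of SRXN1 without baicalein replicate 2 (0.0565). That of PGD ended without genistein replicate 1 (0.0878) or baicalein replicate 3 (0.0660), and also when only the compared groups were fitted (0.1265). For NQO1 the 95% interval of the log2 difference at 20 µM was narrow, from -0.26 to 0.15. For ME1 it ran from -0.26 to 0.61, for GCLC from -0.27 to 1.14, for SLC7A11 from -0.10 to 1.39 and for TXNRD1 from -1.76 to -0.09.

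At 10 µM none of the 9 genes differed between the drugs by edgeR's test, at an unadjusted p under 0.05 or by DESeq2, where 0.00589% of all genes were called. The intervals of the log2 difference there ran from -0.32 to 0.36 for HMOX1, from -0.30 to 0.11 for NQO1, from -0.23 to 0.33 for PGD and from -0.16 to 0.40 for SRXN1. They were wider for GCLC, GCLM, SLC7A11, TXNRD1 and ME1, the widest from -1.39 to 0.27 for TXNRD1. The change from 10 to 20 µM itself differed between genistein and baicalein for HMOX1 (log2 -1.39 ± 0.218 SE, adjusted p = 0.000426) and SRXN1 (log2 -0.55 ± 0.183 SE, adjusted p = 0.0357), 2 of 9 genes, where 32.8% of all genes were called and 15.5% in this lower direction.

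**Figure D3:**
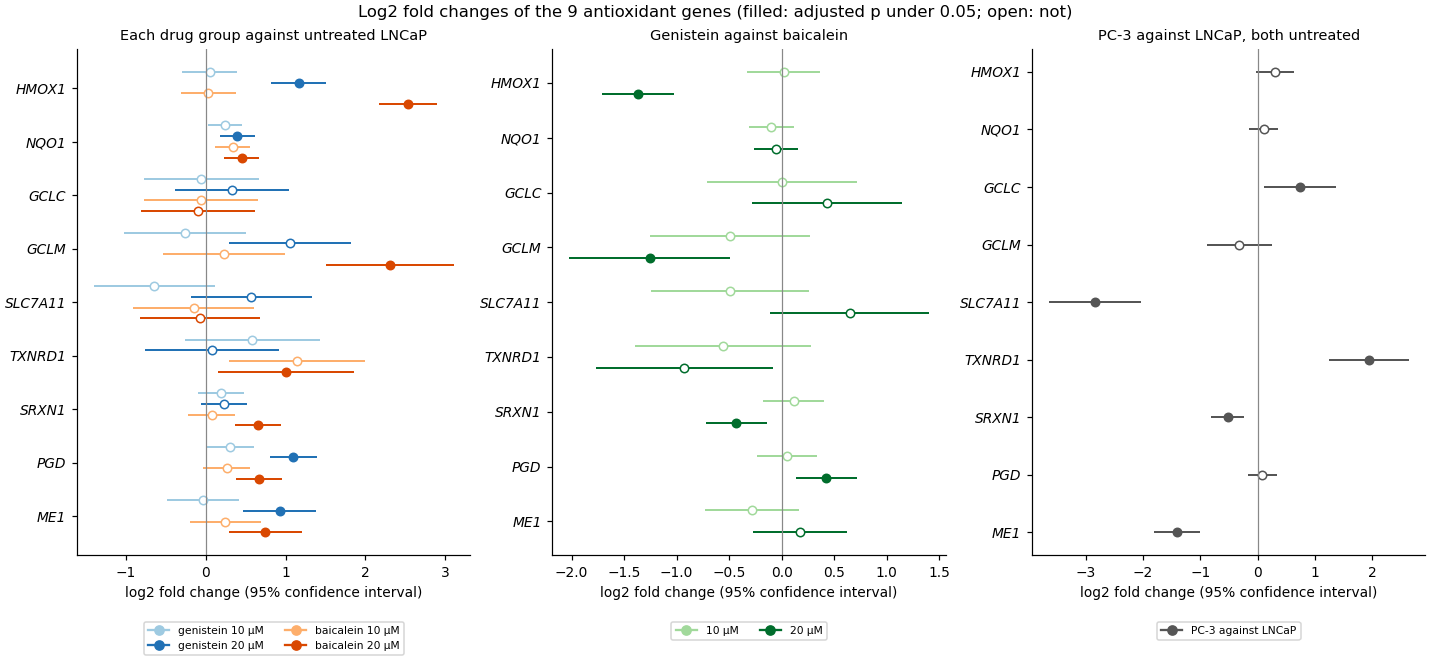
Log2 fold change of the 9 genes with its 95% confidence interval for each drug group against untreated LNCaP (left), genistein against baicalein at 10 and 20 µM (middle) and PC-3 against LNCaP (right), on a linear log2 axis. Filled circles have an adjusted p under 0.05 and open ones do not. HMOX1 at 1.16 and 2.53 and GCLM at 2.31 for baicalein stand farthest right among the drug changes, and SLC7A11 at -2.83 farthest left in the PC-3 comparison.

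PC-3 and LNCaP cells, both untreated, differed in 5 of the 9 genes, where 74.9% of all 17259 tested genes were called in this fit of 6 libraries, 37% higher in PC-3 and 37.9% lower. TXNRD1 and GCLC were higher in PC-3, and SLC7A11, ME1 and SRXN1 lower. TXNRD1 had 1959, 1972 and 1015 CPM in PC-3, against 411, 508 and 360 CPM in LNCaP, 3.82-fold higher (log2 1.93 ± 0.284 SE, adjusted p = 0.000732). All PC-3 libraries lay above all LNCaP ones, and RPL18AP3 also lay higher, at 770.4 to 964 CPM in PC-3 against 496 to 552 CPM in LNCaP. GCLC had 152, 126 and 101 CPM in PC-3, against 97.4, 75.2 and 52.5 CPM in LNCaP, 1.67-fold higher (adjusted p = 0.0353). That call ended without LNCaP replicate 2 or 3 or PC-3 replicate 1 or 2 (adjusted p = 0.0716 to 0.0975).

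SLC7A11 had 110.1, 99.8 and 48.9 CPM in PC-3, against 737, 523 and 562 CPM in LNCaP, 7.12-fold lower (log2 -2.83 ± 0.331 SE, adjusted p = 0.000237). ME1 had 94.8, 92.5 and 70.3 CPM in PC-3, against 258, 204 and 210.2 CPM in LNCaP, 2.64-fold lower (adjusted p = 0.000201). SRXN1 had 115, 134 and 138 CPM in PC-3, against 168, 193 and 188 CPM in LNCaP, 1.44-fold lower (adjusted p = 0.00407). None of these 3 genes overlapped between the lines.

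HMOX1, NQO1, GCLM and PGD were not called between the lines. With the trends of GC content and length removed GCLM was called lower in PC-3 (log2 -0.45, adjusted p = 0.0144), and HMOX1, NQO1 and PGD, still not called, had log2 differences of -0.04, -0.19 and -0.07. HMOX1 had 24.2, 26.7 and 29.7 CPM in PC-3, against 18.5, 23.2 and 22.9 CPM in LNCaP, which did not overlap (log2 0.30, interval -0.02 to 0.62, adjusted p = 0.0789), and was called without PC-3 replicate 1 (adjusted p = 0.0405). The intervals of the log2 difference were -0.13 to 0.34 for NQO1 and -0.15 to 0.31 for PGD. GCLM had 53.9 to 90.9 CPM in PC-3, against 73.3 to 107 CPM in LNCaP, and the ratio of GCLM to GCLC was 0.531 to 0.596 in PC-3, against 0.976 to 1.67 in LNCaP. Per kilobase, TXNRD1 led the 9 genes in PC-3 at 246 CPM per kb and SLC7A11 was lowest at 8.94 CPM per kb.

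Ordered by mean level over the 6 groups, most neighbours could not be separated. For HMOX1 both 20 µM groups stood apart from each other and from all other groups, and PC-3 overlapped 10 µM baicalein. For GCLM the 20 µM baicalein and 20 µM genistein groups stood apart from each other and from the rest. For PGD the 20 µM groups also stood apart, with genistein on top. For NQO1 and GCLC every neighbouring pair overlapped, and no group of TXNRD1 stood apart from all others, since PC-3 overlapped 20 µM baicalein. For SLC7A11 and ME1 PC-3 stood apart below all LNCaP groups, and for SRXN1 PC-3 stood apart at the bottom and 20 µM baicalein at the top.

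Within groups, the members scattered in a pattern that followed GC content. For each library the slope of log2(CPM + 0.5) on GC content was taken over 11933 genes with a mean of at least 5 CPM, relative to its group mean. It ranged from -0.24 per 10 points of GC in 20 µM baicalein replicate 1 to 0.28 in replicate 2 of the same group, and was 0.25 in 10 µM baicalein replicate 1. The exons of SLC7A11 hold 35.9% GC, those of ME1 39.5% and those of GCLM 40.4%, below the lower quartile of expressed genes at 42.7%. Over the 18 libraries the correlation of a gene's deviation from its group mean with that slope was -0.954 for SLC7A11, -0.952 for ME1, -0.980 for GCLM and -0.826 for GCLC (43.9% GC).

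It was 0.949 for SRXN1 (53.6% GC), 0.610 for PGD (53.8% GC) and 0.932 for HMOX1 (60.2% GC). For TXNRD1 and NQO1, at 45.1% and 47.1% GC, it was 0.289 and 0.158. These are descriptions over libraries that share each slope, and the slope is itself made from all genes. Spearman's rho lay between -0.973 and -0.816 for the 4 genes of lowest GC content and at 0.955, 0.511 and 0.897 for SRXN1, PGD and HMOX1. Without the 2 libraries whose slopes were farthest from the median, Pearson's r was -0.970 to -0.749 for the 4 genes of lowest GC content, 0.922 for SRXN1, 0.890 for HMOX1 and 0.361 for PGD.

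When each library's trends with GC content and exon length, relative to the mean of the fitted libraries, were removed, 7 of 9 genes were called higher with 20 µM genistein (GCLM, SLC7A11 and SRXN1 in addition to the 4 above), where 23.6% of all genes were called and 12.5% were called higher. HMOX1 then changed by log2 1.16 with genistein and 2.49 with baicalein, and GCLM by 0.96 and 2.11. In that fit the direct comparison of genistein with baicalein at 20 µM showed SLC7A11 higher with genistein (log2 0.77, adjusted p = 1.85e-06) and ME1 higher (log2 0.34, adjusted p = 0.00172), where 55.1% of all genes were called. For TXNRD1 with 20 µM baicalein the log2 change was 1.07 and the adjusted p 0.0395.

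**Figure D4:**
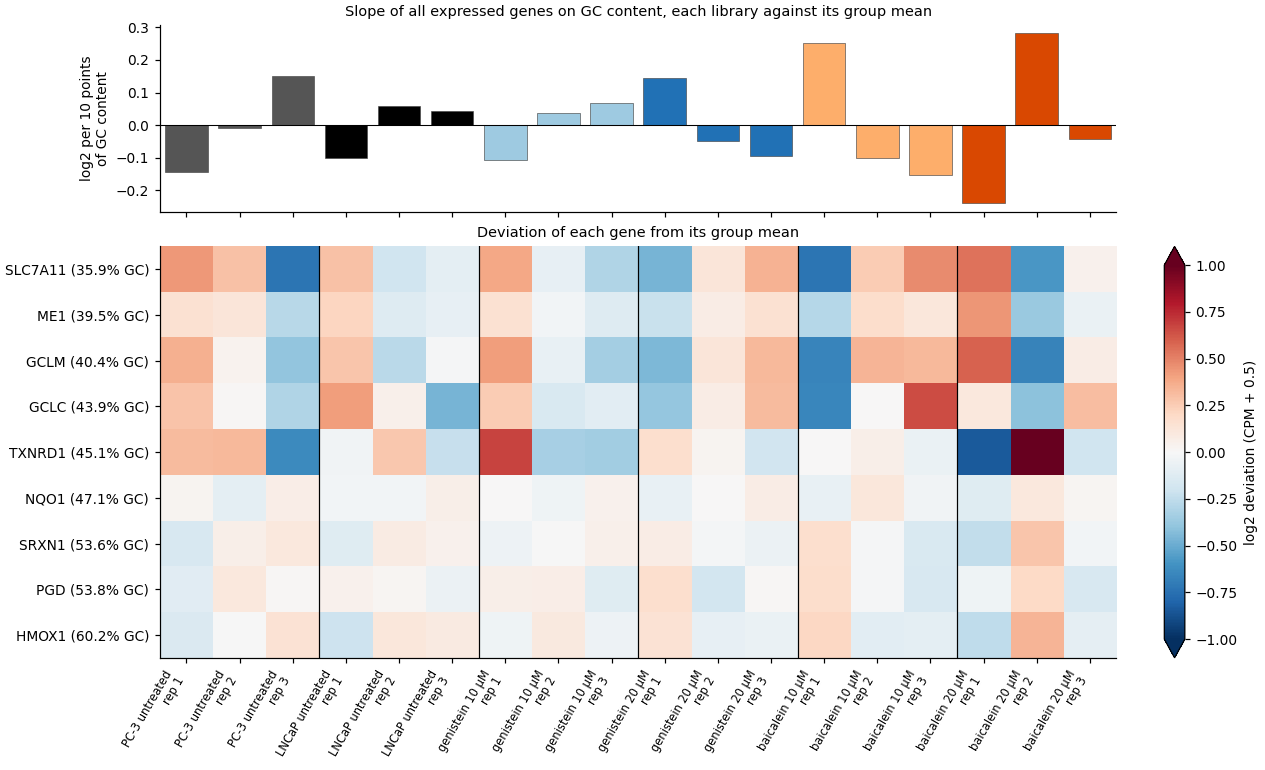
Upper panel, slope of all expressed genes' log2 level on GC content in each library relative to its group mean, in log2 per 10 percentage points. Lower panel, log2 deviation of each of the 9 genes from its group mean (red above, blue below, colours end at -1 and 1). Genes are ordered by transcript GC content from SLC7A11 (35.9%) at the top to HMOX1 (60.2%) at the bottom. Low-GC genes are red where the slope is negative and blue where it is positive, as in 20 µM baicalein replicates 1 and 2.

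Over all genes tested, 8.31% were called higher and 8.12% lower with 20 µM genistein, 29.4% higher and 27.8% lower with 20 µM baicalein, and 37% higher and 37.9% lower in PC-3 than in LNCaP. The counts of the gene lists below stand beside these shares. Among 13 genes that control NRF2, 7 rose with 20 µM baicalein, where 29.4% of all genes did, and 2 with 20 µM genistein, where 8.31% did, and none fell (median log2 change 0.63 and 0.07). MAFF, a small MAF partner of NRF2, had 70.3 to 101 CPM with 20 µM baicalein and 10.4 to 11.9 CPM with 20 µM genistein, against 3.28 to 4.16 CPM in untreated LNCaP. It rose 24.5-fold (adjusted p = 2.92e-10) and 3.25-fold (adjusted p = 1.33e-05). SQSTM1, the autophagy receptor that can sequester KEAP1, rose 4.49-fold with baicalein (adjusted p = 3.46e-06) and 2.26-fold with genistein (adjusted p = 0.00321). MAFK rose 2.76-fold and the repressor BACH1 4.15-fold with baicalein (adjusted p = 1.47e-06 and 0.000518).

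BACH1 was uneven, with 475, 170 and 316 CPM in the 20 µM baicalein libraries, against 99.5, 68.9 and 70.4 CPM in untreated LNCaP. NFE2L2, the gene of NRF2 itself, had 50.2, 35.9 and 45.5 CPM with 20 µM baicalein, against 23.6, 22.4 and 27.2 CPM in untreated LNCaP, 1.85-fold higher (adjusted p = 0.000751). It was not called with 20 µM genistein, nor was KEAP1 with either drug. In PC-3 4 of the 13 were higher than in LNCaP and 3 lower, beside 37% and 37.9% of all genes, with MAFF 14.5-fold and SQSTM1 2.37-fold higher (adjusted p = 1.28e-06 and 0.00243) and NFE2L2, KEAP1 and BACH1 not called.

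Of 25 further NRF2 targets 21 were tested in LNCaP. With 20 µM genistein 6 rose and none fell, beside 8.31% and 8.12% of all genes (median log2 change 0.42), among them the ferritin heavy chain FTH1 at 1.54-fold (adjusted p = 0.00498) and the lipase ABHD4 at 1.45-fold (adjusted p = 0.00994). At 20 µM baicalein 8 of the 21 rose and 4 fell (median 0.03), beside 29.4% and 27.8% of all genes. OSGIN1 rose 4.37-fold (adjusted p = 1.2e-06) and the carbonyl reductase CBR3 3.37-fold (adjusted p = 7.03e-05), while glutathione reductase GSR fell 2.37-fold (adjusted p = 8.59e-07). GSR had 137 to 154 CPM with 20 µM baicalein, against 352 to 359.7 CPM in untreated LNCaP. In PC-3 12 of 22 were higher and 6 lower than in LNCaP, beside 37% and 37.9% of all genes, with FTH1 5.93-fold higher (adjusted p = 1.2e-06). The aldo-keto reductase AKR1C3 had 28.1 to 32.7 CPM in PC-3, against 0.172 to 0.358 CPM in LNCaP, 3 to 7 reads per library (adjusted p = 9.28e-07).

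Of 15 genes that use or recycle glutathione, 3 rose with 20 µM genistein and none fell, beside 8.31% and 8.12% of all genes, including the cystathionine lyase CTH at a log2 change of 0.68 (adjusted p = 0.00497). With 20 µM baicalein 4 rose and 6 fell (median log2 change -0.46), beside 29.4% and 27.8% of all genes, the falls including OPLAH, which reopens oxoproline, at 1.80-fold (adjusted p = 5.65e-05) and CBS, which feeds cysteine synthesis, at 1.70-fold (adjusted p = 0.000521). In PC-3 6 of 16 were higher and 8 lower than in LNCaP, beside 37% and 37.9% of all genes, with the glutaredoxin GLRX 18.7-fold higher and CBS 51.5-fold lower. The transferase GSTP1 had 519.9 to 569 CPM in PC-3, against 0.183 to 0.230 CPM in LNCaP, 3 to 4 reads per library.

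Of 12 tested NADPH enzymes other than PGD and ME1, 2 rose with 20 µM genistein and none fell, beside 8.31% and 8.12% of all genes, namely cytosolic isocitrate dehydrogenase IDH1 at 2.07-fold (adjusted p = 0.0223) and transketolase TKT at 1.33-fold (adjusted p = 0.0468). Baicalein at 20 µM left 3 higher and 4 lower, near the 29.4% and 27.8% of all genes, with the folate enzyme MTHFD1 3.88-fold and H6PD 4.89-fold lower (adjusted p = 1.5e-07 and 1.2e-06). In PC-3 8 of 14 were higher than in LNCaP and 5 lower, beside 37% and 37.9% of all genes.

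In haem and iron handling, 3 of 11 genes rose with 20 µM genistein and none fell, beside 8.31% and 8.12% of all genes. With 20 µM baicalein 3 of 11 rose and 2 fell, no more than the 29.4% and 27.8% of all genes. Biliverdin reductase BLVRA, which acts on the product of HMOX1, rose 1.37-fold with genistein (adjusted p = 0.0257) and 1.26-fold with baicalein (adjusted p = 0.0326). Ferrochelatase FECH, the last enzyme of haem synthesis, fell 2.39-fold with baicalein (adjusted p = 0.000885). In PC-3 7 of 12 were higher than in LNCaP and 1 lower, beside 37% and 37.9% of all genes.

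Of 12 genes of the ATF4 amino acid response, which shares SLC7A11 with NRF2, 7 rose with 20 µM genistein and none fell, beside 8.31% and 8.12% of all genes (median log2 change 0.56). In 20 µM baicalein libraries 6 rose and 2 fell (median 0.62), beside 29.4% and 27.8% of all genes, and DDIT3 rose 11.2-fold (adjusted p = 2.53e-09) and SESN2 8.26-fold (adjusted p = 7.75e-09). With genistein DDIT3 rose 3.05-fold (adjusted p = 1.57e-05) and TRIB3 2.78-fold (adjusted p = 3.09e-05). In PC-3 1 of 12 was higher than in LNCaP and 7 lower, beside 37% and 37.9% of all genes, with the serine synthesis enzymes PSAT1 5.25-fold and PHGDH 4.18-fold lower (adjusted p = 1.25e-06 and 5.81e-06).

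Among 7 lipogenic genes, which include the regulator SREBF1 beside enzymes, 5 rose with 20 µM genistein and none fell, beside 8.31% and 8.12% of all genes. The elongase ELOVL6 led at 6.45-fold (adjusted p = 1.28e-07), before the acetyl-CoA synthetase ACSS2 at 3.83-fold (adjusted p = 2.93e-06). At 20 µM baicalein 2 of 7 rose, near the 29.4% of all genes, and 4 fell, beside 27.8%, with the citrate lyase ACLY 2.33-fold lower (adjusted p = 7.89e-07). In PC-3 1 was higher and 6 lower than in LNCaP, beside 37% and 37.9% of all genes. Among close relatives of the members, 1 of 6 rose with 20 µM genistein (the quinone reductase NQO2 at 1.38-fold, adjusted p = 0.0285), beside 8.31% of all genes. With baicalein 3 of 6 fell (TXNRD2, TXNRD3 and SLC7A5), beside 27.8% of all genes. In PC-3 2 of 7 relatives were higher and 4 lower than in LNCaP, beside 37% and 37.9% of all genes.

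The genes whose log2 CPM was most like that of HMOX1 over the 15 LNCaP libraries, of 11244 genes with a mean of at least 5 CPM, were ZYX, LARP6 and DDIT3 (Pearson r 0.995 each), then MT1X and CEBPB (0.993 each). For NQO1 they were POMP (0.913), RMND1 (0.895), OSTF1 (0.885), MAP1LC3A (0.877) and CCNDBP1 (0.866). For SLC7A11 they were GPR180 (0.965), TXNDC16 (0.964), FAR1 and LANCL1 (0.962 each) and RCBTB1 (0.961). The libraries fall into groups and share the GC slopes given above, so these values describe likeness in these libraries only.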

How the data were processed

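RNA was measured in 18 libraries. The authors deposited 1 whole-number count per gene and library for 63241 genes. The submitters' processing notes name STAR (2.7.6a), featureCounts (1.6.4), DESeq2 (1.20.0), fastp and the build GRCh38, without roles. Whether counting used strand, and what was done with multi-mapped reads, is not given in the sources used here. Per the labels' protocols, the poly(A) library kit was one that does not mark strand. The 18 FPKM columns were not used.

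Counts were fitted with edgeR 4.0.16 in R 4.3.3 (TMM scaling, filterByExpr by group, robust quasi-likelihood F test, Benjamini-Hochberg adjustment over all genes tested), and the fit was tested on simulated data. CPM values use TMM factors over all 18 libraries. GC content (over all transcripts of a gene) and exon length were taken from GENCODE 29 and were available for 95% of tested genes. Members, lists and the naming rule (all members, and at most 4 genes of smallest adjusted p per list and comparison) were chosen with earlier results of these data known. HMOX2, NFE2L2, KEAP1, BLVRA and RPL18AP3 were named after their values were seen. Alternatives were DESeq2 1.42.0, RLE scaling, no filter, only the compared groups, no mitochondrially encoded genes, GC and length trends removed, a replicate block, and leaving out each library.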

Additional observations from a re-analysis of the deposited data

Results flagged for a closer look

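The change from 10 to 20 µM differed between genistein and baicalein for HMOX1, by -1.388 on the log2 scale (genistein minus baicalein, ± 0.218 SE, adjusted p = 0.000426). HMOX1 changed by 1.11 with genistein and 2.50 with baicalein between these doses, and the difference was called in all 20 alternatives run (adjusted p at most 0.00179).

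The same test gave a difference of -0.5459 for SRXN1 (± 0.183 SE, adjusted p = 0.0357), from 0.04 with genistein and 0.58 with baicalein. It was not called in 11 of 20 alternatives, including without 20 µM baicalein replicate 2 (log2 -0.41, adjusted p = 0.0643).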

How the results depend on the processing

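Over the 9 genes and 10 comparisons, 1314 values were recomputed under the alternatives. Of these, 1229 kept their side of the threshold, 49 lost a call and 36 gained one. A change of sign occurred in 68 values, all of them not called in either fit, and in 0 called ones. The number of genes called kept within 1.5 times the reported number except as follows. With DESeq2 it was 1 for 10 µM baicalein against untreated LNCaP (0 as reported). For the difference of the dose change between the drugs (2 as reported) it was 1 with no filter on low counts, 1 when the fit held no other groups, 6 with the GC and length trends removed, and 1 to 4 when single libraries were left out. For 20 against 10 µM genistein (5 as reported) it was 3 with no filter and 3 to 5 when single libraries were left out. For 20 µM genistein against untreated LNCaP (4 as reported) it was 7 with the GC and length trends removed. The cause was not tested. HMOX1 had 209 to 1891 reads in a library. These were the fewest of the 9 genes in every group except 20 µM baicalein, so relative counting error was largest for HMOX1 in those groups. At 20 µM baicalein GCLC had fewer, with 774, 623 and 810 reads against 1082, 1891 and 1102 for HMOX1.

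Same-numbered libraries of different groups deviated from their group means with correlations of -0.377 to 0.320 among LNCaP groups and -0.00969 to 0.153 between PC-3 and LNCaP. For LNCaP libraries of different numbers they were -0.314 to 0.425. No pairing by number showed in these values, but they also carry each library's GC trend and cannot exclude a shared culture or day. With the replicate number as a block, the difference of the dose change between the drugs gave 1 call, or 6 when the GC and length trends were also removed, and every other count stayed within 1.5 times the reported one.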
